A study of Mus musculus with 12 samples.

Results

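The genes described here are 10 markers of the cell surface, *Ly6a*, *Ly6e*, *Kit*, *Cd24a*, *Cd7*, *Cd69*, *Cd81*, *Cd9*, *Cd83* and *Cd2*, out of 24346 gene symbols in the files. They were chosen by name as markers of activation and tissue residency, and *Cd24a* was selected on its strong fall with IL-33 in these libraries. Its differences are therefore given as a description, and it is left out of the counts of tested members. Tests of *Cd24a* between genotypes and for the interaction were planned and run with limma but are not read here, since they use the values it was selected on. All 10 genes had a mean above the minimum of 0.5 FPKM used for testing.

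RNA was sequenced from lung group 2 innate lymphoid cells (ILC2s) of mice in 12 libraries, 3 in each of 4 groups. The groups were WT mice given PBS, *Sema6d*-/- mice given PBS, WT mice given IL-33 and *Sema6d*-/- mice given IL-33, each by the intranasal route for 3 days. The strain is C57BL/6 in the labels and C57BL/6J in the methods. According to the methods of the study, the mice were 7 to 12 weeks old, and ILC2s were sorted as CD45+ lineage-negative cells with Thy1.2 and ST2. For how the *Sema6d*-/- mice were made, the methods refer to earlier work. The IL-33 dose differs between the sources, 50 ng in the labels and 500 ng per mouse per day in the methods. Whether a library came from a single mouse or from pooled mice is not stated in the labels, so the p-values measure the spread between these libraries. Values are FPKM, fragments per kilobase of transcript scaled to the mapped fragments of a library, so that levels can be compared between genes.

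ILC2s are innate lymphocytes that live in tissues such as the lung and release type 2 cytokines when alarmins such as IL-33 reach them. Surface proteins tell them apart from other cells and report on their state: CD69 holds lymphocytes in tissue by pulling the egress receptor S1PR1 from the surface, and CD83 appears on activated lymphocytes and mature dendritic cells. Proteins of the Ly6 family, tetraspanins, the growth factor receptor Kit and adhesion receptors such as CD2 differ between subsets and maturation stages of innate lymphoid cells.

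*Sema6d*, the deleted gene, was still measured in every library. Its level in WT libraries was 27.5, 46.1 and 37.5 FPKM under PBS and 19.7, 35.5 and 28.7 FPKM under IL-33. In *Sema6d*-/- libraries it was 29.0, 22.9 and 19.8 FPKM under PBS and 15.4, 13.6 and 13.8 FPKM under IL-33. The genotypes overlapped under PBS (two-sided exact permutation test, p = 0.20) and did not overlap under IL-33 (p = 0.10 in the same exact test, which cannot give a smaller p with 3 libraries a group). The values therefore separate the genotypes under IL-33 only, where 14.2% of all genes tested did not overlap between the genotypes. They do not show which part of the gene the remaining reads came from.

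The PBS libraries gave fewer genes than the IL-33 libraries. Of 3617 genes with a mean from 5 to under 20 FPKM, the number listed at 0 was 472, 536 and 169 in WT PBS and 641, 208 and 237 in *Sema6d*-/- PBS libraries. It was 44, 37 and 39 in WT IL-33 and 25, 39 and 50 in *Sema6d*-/- IL-33 libraries. Values of 0 are for this reason given as listed, which matters for *Cd7*, *Cd9*, *Cd2* and *Cd24a*, each of which was listed at 0 in at least 1 library. It also matters for the related genes *Itgae*, *Ccr7* and *Ly6g5b*, each listed at 0 in at least 1 PBS library. Of 16 housekeeping genes, which most cells use, *Tbp* and *Gusb* were listed at 0 in *Sema6d*-/- PBS replicate 1 and none in any other library. Relative depth, estimated from genes of low level with WT IL-33 replicate 3 set to 1, was 0.739, 0.889 and 0.887 in WT PBS and 0.842, 0.860 and 0.999 in *Sema6d*-/- PBS libraries. It was 1.39, 1.10 and 1 in WT IL-33 and 1.12, 0.968 and 1.06 in *Sema6d*-/- IL-33 libraries. Total reads are not given, so no counting interval can be attached to a value.

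All 12 ILC2 markers (the most abundant was *Id2*) were above 1 FPKM in each of the 12 libraries. Their summed level was 7211, 7021 and 7109 FPKM in WT PBS, 9369, 5883 and 7666 FPKM in *Sema6d*-/- PBS, 6061, 7038 and 7480 FPKM in WT IL-33 and 7045, 7008 and 7524 FPKM in *Sema6d*-/- IL-33 libraries. The cells thus carried the markers of their label. In the same order of groups, the 6 T cell markers summed to 189.7, 483 and 269.9, to 279, 266 and 339, to 308, 268 and 318 and to 204, 282 and 247 FPKM, mostly from *Cd3g*, and *Cd4* was listed at 0 in all libraries. The 4 B cell markers, led by *Cd79b*, summed to 0, 0.139 and 5.05, to 0, 0 and 8.90, to 26.9, 14.5 and 11.97 and to 3.49, 18.4 and 5.91 FPKM, with *Ms4a1* at 0 in all libraries. These sums were higher under IL-33 in WT, without overlap, and came there from *Cd79b*.

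Of these libraries, *Sema6d*-/- PBS replicate 2 stands apart. The 5 NK cell markers, led by *Ncr1*, summed to 106 FPKM there and to at most 7.93 FPKM in any other library, and all 5 were above 1 FPKM in it. The 8 macrophage markers, led by *Chil3*, summed to 0.195, 1.204 and 16.6 FPKM in WT PBS, 5.50, 177 and 10.6 FPKM in *Sema6d*-/- PBS, 5.29, 5.63 and 0.815 FPKM in WT IL-33 and 5.60, 423 and 143 FPKM in *Sema6d*-/- IL-33 libraries. Replicate 2 of *Sema6d*-/- PBS and replicates 2 and 3 of *Sema6d*-/- IL-33 thus had the highest sums. These came mostly from *Chil3* and *Lyz2*, at 51.1 and 112, 394 and 22.2, and 83.1 and 57.9 FPKM in that order of libraries. *Adgre1*, *Marco*, *Mrc1* and *Csf1r* were listed at 0 in both of these IL-33 libraries, where *C1qb* was at 5.47 and 2.30 FPKM. In the PBS library *Marco* and *Mrc1* were at 7.28 and 6.84 FPKM. The span of many differences with each library left out is therefore given beside them.

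Summed markers of some other cell types differed between groups. The 6 dendritic cell markers, led by *H2-Ab1*, summed to 2.46, 38.2 and 67.6 FPKM in WT PBS, 92.7, 49.1 and 93.6 FPKM in *Sema6d*-/- PBS, 172, 164 and 248 FPKM in WT IL-33 and 503, 407 and 441 FPKM in *Sema6d*-/- IL-33 libraries. The 6 mast cell and basophil markers, led by *Cpa3* and with *Mcpt8* at 0 in all libraries, summed to 63.2, 88.6 and 73.3, to 42.9, 95.2 and 50.0, to 29.9, 32.0 and 17.8 and to 17.9, 22.8 and 41.9 FPKM. The former sums were higher and the latter lower in every IL-33 library than in any PBS library of the same genotype, and under IL-33 the former were also higher in every *Sema6d*-/- than in any WT library. The mast cell and basophil difference came from *Cpa3* (75.02 and 25.6 FPKM in WT), since the other markers of that list were at most 5.90 FPKM in any library. Those of the dendritic cell sums came mostly from *H2-Ab1*, while *Flt3* and *Siglech* were at most 0.213 FPKM in any library. The 4 erythroid markers, led by *Hba-a1* and with *Klf1* at 0 in all libraries, summed to 15.99, 45.1 and 23.6, to 12.4, 31.8 and 2.71, to 4.47, 4.75 and 0.271 and to 0.294, 4.64 and 1.85 FPKM. The 5 epithelial markers, led by *Epcam*, summed to 38.1, 33.8 and 23.1, to 54.0, 44.7 and 44.3, to 18.7, 21.8 and 15.1 and to 23.8, 4.26 and 101 FPKM. The sums of both lists were lower under IL-33 in WT libraries, without overlap, but each difference came from its most abundant gene. *Epcam* averaged 29.4 FPKM under PBS and 5.69 FPKM under IL-33 in WT, whereas the other 4 epithelial markers (*Sftpc*, *Sftpb*, *Scgb1a1* and *Cdh1*) had higher means under IL-33. *Hba-a1* averaged 27.6 and 3.16 FPKM, and no other erythroid marker exceeded 1.92 FPKM in any library. The 5 endothelial markers, led by *Pecam1* and with *Tek* at 0 in all libraries, summed to between 1.32 and 23.1 FPKM. The remaining lists were near 0: the neutrophil markers (3 of 4 in the files, led by *Retnlg*, with *S100a8* and *S100a9* at 0) reached 3.79 FPKM. The 4 eosinophil markers (led by *Ccr3*, with *Epx* and *Prg2* at 0) reached 1.99 FPKM, the 5 mesenchymal markers (led by *Col3a1*) 4.51 FPKM and the 4 platelet markers (led by *Itga2b*, with *Pf4* and *Ppbp* at 0) 0.643 FPKM. In these bulk samples, fewer cells of a type and less RNA per cell cannot be told apart.

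In WT PBS libraries the order of mean levels was *Cd69*, *Ly6e*, *Ly6a*, *Cd81*, *Cd24a*, *Kit*, *Cd9*, *Cd83*, *Cd2* and *Cd7*, from 2991 FPKM for *Cd69* to 12.3 FPKM for *Cd7*. Neighbours in that order overlapped between libraries except at 3 steps, from *Ly6e* to *Ly6a*, from *Cd81* to *Cd24a* and from *Cd83* to *Cd2*. In *Sema6d*-/- PBS libraries the order was *Ly6e*, *Cd69*, *Ly6a*, *Cd81*, *Kit*, *Cd83*, *Cd24a*, *Cd9*, *Cd2* and *Cd7*, and neighbours did not overlap from *Cd69* to *Ly6a*, from *Cd81* to *Kit* and from *Kit* to *Cd83*. Under IL-33 both genotypes had the same order, *Ly6e*, *Cd69*, *Ly6a*, *Cd83*, *Cd81*, *Kit*, *Cd2*, *Cd24a*, *Cd7* and *Cd9*. Neighbours overlapped there in WT libraries for *Cd83* and *Cd81*, *Cd24a* and *Cd7*, and *Cd7* and *Cd9*, and in *Sema6d*-/- libraries for *Ly6e* and *Cd69* and for *Cd7* and *Cd9*. The IL-33 libraries thus spread the genes into a high set led by *Ly6e* and *Cd69* and a low set of *Cd24a*, *Cd7* and *Cd9*, with *Cd83* in the upper part.

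**Figure D1:**
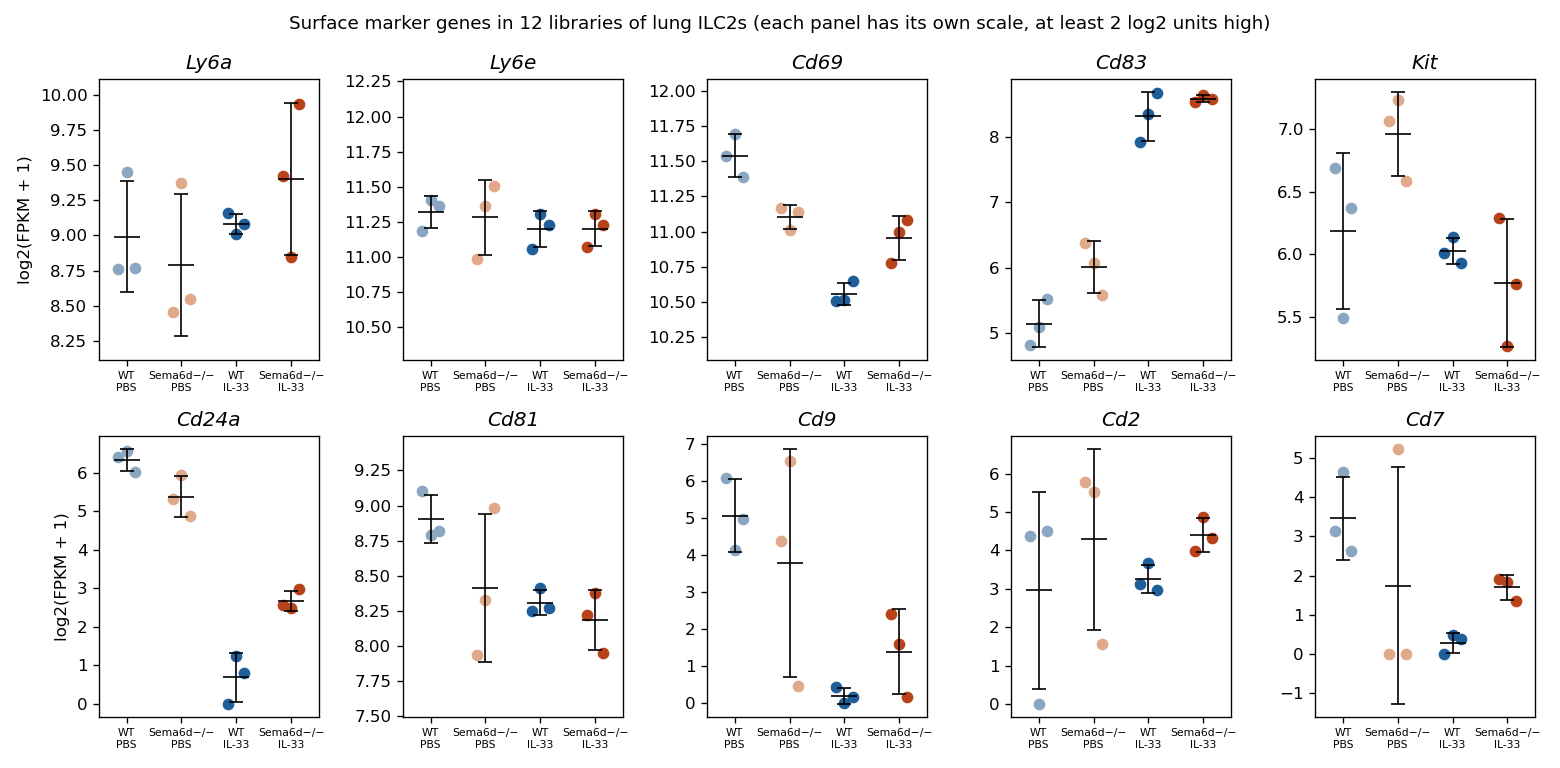
Levels of the 10 surface marker genes in the 12 libraries, as log2(FPKM + 1) on the vertical axis of each panel, each on its own scale, with the 4 groups of 3 libraries along the horizontal axis. Points are libraries, and bars give the mean and SD; *Cd83* averages 35.1 FPKM in WT PBS and 323 FPKM in WT IL-33 libraries, and *Cd69* 2991 and 1506 FPKM.

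The first question was how the surface marker genes differ between IL-33 and PBS within each genotype. *Cd83* rose with IL-33 in both genotypes, *Cd69* and *Cd9* fell in WT ILC2s, and the levels of *Ly6e* and *Ly6a* overlapped between treatments in both genotypes. Differences are on the log2(FPKM + 1) scale, which understates those of genes at low level, and were tested with limma over 11440 genes, with an adjusted p under 0.05 as the threshold. The comparisons share libraries, since each group enters more than 1 of them.

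Of the 9 members tested between IL-33 and PBS in WT ILC2s, 1 was called higher, against 2.71% of all genes tested, and 2 were called lower, against 1.61% of all genes. Between these groups 5 of the 9 members did not overlap (*Cd7*, *Cd69*, *Cd81*, *Cd9* and *Cd83*), against 25% of all genes, and 5 of the 9 had an unadjusted p under 0.05, against 17.7% of all genes. In *Sema6d*-/- ILC2s 1 of 9 members was called higher, against 1.79% of all genes. There 0 members were called lower by limma, against 1.11% of all genes, and 2 of the 9 members had an unadjusted p under 0.05, against 15.3% of all genes. The groups did not overlap in 2 of these 9 members (*Kit* and *Cd83*), against 22.6% of all genes, a share near that background. The median difference of the 9 members without *Cd24a* was −0.16 in WT and −0.08 in *Sema6d*-/- ILC2s, against 0.16 and 0.14 over all genes tested. Quantile normalization moved the medians over all genes to −0.05 and −0.02, and the calls of *Cd83* and *Cd69* held with it. Because the members were chosen with results in view, nothing is read from these counts about surface markers in general.

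*Cd83* (chromosome 13, 43784775 to 43803132, GRCm38) encodes an immunoglobulin-superfamily protein that marks activated lymphocytes and mature dendritic cells. Under PBS its level was 27.3, 33 and 45.1 FPKM in WT and 82.3, 66.2 and 47.1 FPKM in *Sema6d*-/- libraries. The IL-33 libraries gave 239, 325 and 403 FPKM in WT and 369, 396 and 381 FPKM in *Sema6d*-/- libraries. Every IL-33 library was above every PBS library, and the genotypes overlapped under IL-33. The mean rose 9.18-fold in WT ILC2s, a log2 difference of 3.16 (standard error 0.26, 95% interval 2.59 to 3.73, adjusted p = 8.38e-05, limma). It rose 5.86-fold in *Sema6d*-/- ILC2s, a log2 difference of 2.57 (standard error 0.26, adjusted p = 0.000468, limma). The difference between these responses was −0.59 (standard error 0.37, adjusted p = 0.895, limma; −0.81 to −0.41 with each library left out), so they were not shown to differ. The sum of the dendritic cell markers, mostly *H2-Ab1*, was also higher under IL-33, as was that of the B cell markers in WT, and the part of dendritic or B cells in the rise of *Cd83* was not tested.

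*Cd69* (chromosome 6, 129267325 to 129275436, GRCm38) encodes the lectin-like receptor used as a marker of both early activation and tissue residency. Under PBS its level was 2973, 3318 and 2682 FPKM in WT and 2299.5, 2061 and 2251 FPKM in *Sema6d*-/- libraries. With IL-33 it stood at 1454, 1461 and 1603 FPKM in WT and 1753, 2044 and 2166 FPKM in *Sema6d*-/- libraries. WT libraries were thus the highest under PBS and the lowest under IL-33, while the *Sema6d*-/- libraries lay between them and overlapped between treatments. In WT ILC2s *Cd69* fell, with a mean 1.99 times as high under PBS, a log2 difference of −0.99 (standard error 0.11, 95% interval −1.22 to −0.75, adjusted p = 0.000541, limma). In *Sema6d*-/- ILC2s the log2 difference was −0.15 (standard error 0.11, 95% interval −0.39 to 0.09, adjusted p = 0.555, limma). It was −0.038 with quantile normalization and ran from −0.22 to −0.065 with each library left out. The interaction, which is the difference between these responses, came to 0.83 (standard error 0.15, 95% interval 0.49 to 1.17) with an unadjusted p of 0.000179 in limma and an adjusted p of 0.205. It passed the threshold only without WT PBS replicate 3 (0.91, adjusted p = 0.0484, limma). Over 20 alternatives its values were 0.75 to 0.92, with adjusted p from 0.0484 to 0.869 (limma). *Cd69* and *Cd83*, both markers of activation, therefore moved in opposite directions in WT ILC2s.

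*Cd9* (chromosome 6, 125460266 to 125494791, GRCm38) and *Cd81* (chromosome 7, 143052739 to 143067934, GRCm38) encode tetraspanins, which organize other proteins into patches of the membrane. *Cd9* was at 67.1, 16.6 and 30.3 FPKM in the WT PBS group and 19.9, 91.2 and 0.373 FPKM in *Sema6d*-/- PBS libraries. Under IL-33 it was at 0.357, 0 and 0.124 FPKM in the WT group and 4.33, 2.05 and 0.117 FPKM in *Sema6d*-/- libraries. The PBS libraries of *Sema6d*-/- mice spanned nearly the whole range, from the level of the IL-33 libraries to the highest of all, in replicate 2. In WT ILC2s *Cd9* fell, without overlap, by a log2 difference of −4.86 (standard error 1.22, 95% interval −7.53 to −2.19, adjusted p = 0.0473, limma). This call did not hold without the filter on low values (adjusted p = 0.0847, limma) or without the trend (0.0694). It was also lost when any library other than *Sema6d*-/- PBS replicates 2 and 3 was left out (adjusted p from 0.0512 to 0.148, limma). In *Sema6d*-/- ILC2s the log2 difference was −2.40 (standard error 1.22, adjusted p = 0.386, limma), with overlap. Without *Sema6d*-/- PBS replicate 3, the library at 0.373 FPKM, it was −4.06 and called (adjusted p = 0.0335, limma), and without replicate 2 it was −1.03 (adjusted p = 0.666, limma), over a range of adjusted p from 0.0335 to 0.713 in 21 alternatives. The interaction was 2.47 (standard error 1.73, adjusted p = 0.895, limma), and ran from 0.80 without *Sema6d*-/- PBS replicate 3 to 3.83 without replicate 2 (adjusted p = 0.851 and 0.545, limma). *Epcam* and *Hba-a1* were lower under IL-33 in WT libraries as well, and their part in the levels of *Cd9* was not tested.

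*Cd81* was at 549, 443 and 449.8 FPKM in the WT PBS group and 244, 319.9 and 504 FPKM in *Sema6d*-/- PBS libraries. After IL-33 it was at 302, 339 and 307 FPKM in the WT group and 298, 332 and 247 FPKM in *Sema6d*-/- libraries. The 3 WT PBS libraries were above all WT IL-33 libraries, while the *Sema6d*-/- groups overlapped. The log2 difference in WT ILC2s was −0.60 (standard error 0.23, 95% interval −1.10 to −0.10, adjusted p = 0.193, limma), and the mean was 1.52 times as high under PBS. In *Sema6d*-/- ILC2s it was −0.23 (standard error 0.23, adjusted p = 0.694, limma), and −0.47 to 0.053 with each library left out. *Cd9*, *Cd81* and *Cd7* each share exon sequence with a gene of the opposite strand (*Gm26728*, *R74862* and *Gm11775*), and their values are uncertain if reads were counted without regard to strand.

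*Cd24a* (chromosome 10, 43578284 to 43584265, GRCm38) encodes a small, heavily glycosylated protein anchored by lipid that is found on immature lymphocytes, red cell precursors and epithelium. Under PBS its level was 85.0, 94.5 and 63.9 FPKM in WT and 39.0, 60.9 and 28.6 FPKM in *Sema6d*-/- libraries. Under IL-33 it was 0, 1.38 and 0.760 FPKM in WT and 4.89, 4.63 and 6.90 FPKM in *Sema6d*-/- libraries. No 2 of the 4 groups overlapped: WT was the highest group under PBS and the lowest under IL-33, with *Sema6d*-/- ILC2s between. As a description of the values the gene was selected on, the mean was 114 times as high under PBS in WT and 7.83 times as high in *Sema6d*-/- ILC2s. The WT ratio divides by a mean of values from 0 to 1.38 FPKM, so it changes with each such library. The log2 differences were −5.65 (standard error 0.43, and −5.93 to −5.31 with each library left out) and −2.71 (standard error 0.43, and −2.96 to −2.43). They differed by 2.94 (standard error 0.61), and limma's test of this is not read because it is built from the same values. *Hba-a1* was also lower under IL-33, averaging 27.6 and 3.16 FPKM in WT and 15.6 and 2.15 FPKM in *Sema6d*-/- libraries, as was *Epcam*, while *Klf1* was listed at 0 in all 12 libraries. The sort required CD45 and used an antibody to erythroid cells among the lineage markers, a gate meant to remove epithelial and erythroid cells. The part of any such cells or their RNA in the levels of *Cd24a* was not tested.

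*Kit* (chromosome 5, 75574916 to 75656722, GRCm38) encodes the receptor for stem cell factor, carried by progenitors, mast cells and some innate lymphoid cells. Its level was 102, 43.8 and 81.7 FPKM in WT PBS and 133, 149.6 and 95.2 FPKM in *Sema6d*-/- PBS libraries. The IL-33 values were 63.2, 69.2 and 60.0 FPKM in WT and 77.3, 37.4 and 53.2 FPKM in *Sema6d*-/- libraries. The 3 *Sema6d*-/- PBS libraries were above all *Sema6d*-/- IL-33 libraries, while the WT groups overlapped. The mean in *Sema6d*-/- ILC2s was 2.25 times as high under PBS, a log2 difference of −1.19 (standard error 0.34, 95% interval −1.93 to −0.45, adjusted p = 0.0971, limma). It was called only without WT PBS replicate 2, the WT library lowest under PBS (adjusted p = 0.0411, limma), over a range of adjusted p from 0.0411 to 0.334 in 21 alternatives. In WT ILC2s the log2 difference was −0.16 (standard error 0.34, adjusted p = 0.871, limma; −0.51 to 0.095 with each library left out), and the interaction was −1.03 (standard error 0.48, adjusted p = 0.888, limma; −1.29 to −0.68 with each library left out). Of the mast cell and basophil markers, *Cpa3* was also lower under IL-33 in both genotypes, while *Fcer1a*, *Ms4a2*, *Mcpt8* and *Tpsb2* were listed at 0 in every PBS library. *Cma1* was at 5.90 FPKM in *Sema6d*-/- PBS replicate 2, the library with the highest *Kit*, and at 0 in all others. The lineage gate of the sort included the antibody MAR-1, named in the study as one to FcγRIα but generally known as one to the IgE receptor FcεRIα of mast cells and basophils, so that the gate would remove cells that carry it. The part of such cells in the levels of *Kit* was not tested. Without *Sema6d*-/- PBS replicate 2 the log2 difference in *Sema6d*-/- ILC2s was −1.06 (adjusted p = 0.173, limma), within a span of −1.45 to −0.94 with each library left out.

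*Cd7* (chromosome 11, 121036747 to 121039418, GRCm38) and *Cd2* (chromosome 3, 101275899 to 101287939, GRCm38) encode receptors of T and NK cells, and CD2 binds CD48 in the mouse. *Cd7* was at 7.75, 24.1 and 5.14 FPKM in the WT PBS group and 0, 36.7 and 0 FPKM in *Sema6d*-/- PBS libraries. Under IL-33 it was at 0, 0.401 and 0.294 FPKM in the WT group and 2.76, 2.58 and 1.53 FPKM in *Sema6d*-/- libraries. The 36.7 FPKM belong to *Sema6d*-/- PBS replicate 2, the library with the NK cell markers, and the other libraries of that group were listed at 0. In WT ILC2s the log2 difference was −3.18 (standard error 1.16, 95% interval −5.71 to −0.65, adjusted p = 0.169, limma, and −5.21 with a pseudocount of 0.1), without overlap. Without *Sema6d*-/- PBS replicate 2, all values left in that group were 0, so the spread shared by the groups was smaller (standard error 0.52). The same difference was then called (adjusted p = 0.00762, limma, over a range from 0.00762 to 0.381 in 21 alternatives). In *Sema6d*-/- ILC2s it was −0.05 (standard error 1.16, adjusted p = 0.997, limma) with that library and 1.70 (standard error 0.58, adjusted p = 0.149, limma) without it, against −0.92 without replicate 1 or 3 of that group. An antibody to NK1.1, a marker of NK cells, was part of the lineage gate of the sort, and its gene *Klrb1c* was at 3.06 FPKM in that library. The part of NK cells in that library's *Cd7* was not tested.

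*Cd2* was at 19.8, 0 and 21.6 FPKM in the WT PBS group and 53.5, 45.1 and 1.96 FPKM in *Sema6d*-/- PBS libraries. The IL-33 libraries held 7.79, 11.6 and 6.79 FPKM in the WT group and 14.9, 28.2 and 19.02 FPKM in *Sema6d*-/- libraries. Both PBS groups held 1 library far below the others, and both overlapped with IL-33. Mean levels were lower under IL-33 than under PBS, at 8.74 against 13.8 FPKM in WT and 20.7 against 33.5 FPKM in *Sema6d*-/- libraries. The log2 differences between IL-33 and PBS had the opposite sign. They were 0.29 (standard error 1.23) in WT and 0.11 (standard error 1.23) in *Sema6d*-/- ILC2s, with adjusted p of 0.947 and 0.988 (limma). Without WT PBS replicate 2, the WT library at 0, the first was −1.19, and without *Sema6d*-/- PBS replicate 3 the second was −1.25. Leaving out other libraries took the first up to 1.06 and the second up to 0.85.

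*Ly6a* (chromosome 15, 74994877 to 74998031, GRCm38), which encodes Sca-1, and *Ly6e* (chromosome 15, 74955051 to 74959905, GRCm38) encode small proteins anchored by lipid and lie near each other on chromosome 15. *Ly6a* was at 432, 698 and 434 FPKM in WT PBS, 349, 663 and 372 FPKM in *Sema6d*-/- PBS, 570.2, 515 and 539.8 FPKM in WT IL-33 and 686, 459 and 978 FPKM in *Sema6d*-/- IL-33 libraries. The groups overlapped, with log2 differences between IL-33 and PBS of 0.09 (standard error 0.30, adjusted p = 0.925, limma) in WT and 0.61 (standard error 0.30, adjusted p = 0.371, limma) in *Sema6d*-/- ILC2s. The former ran from −0.025 to 0.32 with each library left out, and the latter from 0.35 without *Sema6d*-/- IL-33 replicate 3 to 0.90 without *Sema6d*-/- PBS replicate 2 (adjusted p = 0.760 and 0.135, limma). *Ly6e* differed least between group means among the members, with 2559 ± 201, 2519 ± 447, 2353 ± 204 and 2360.4 ± 197 FPKM (SD, n = 3) in the same order of groups. Its log2 differences were −0.12 (95% interval −0.41 to 0.17) in WT and −0.08 (−0.23 to 0.028 with each library left out) in *Sema6d*-/- ILC2s. Of the 75-base stretches of *Ly6a* transcripts, 6.33% also occur in *Ly6c1* or *Ly6i*, against 1.10% shared with *Gm6212* for *Cd24a*, 0.305% for *Cd9* and 0 for the other members.

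The second question was whether the genotypes differed under the same treatment. Under IL-33, *Cd24a*, *Cd7*, *Cd69* and *Cd2* were each higher in every *Sema6d*-/- library than in any WT library, yet none of the members tested passed limma's threshold. Of the 9 members without *Cd24a*, 0 were called by limma, against 0.00874% of all genes (1 gene), and 1, *Cd69*, had an unadjusted p under 0.05, against 1.87% of all genes. Among these 9 the genotypes did not overlap in 3, against 14.2% of all genes, and in all 3 the *Sema6d*-/- values were the higher ones. Without *Cd24a* the median difference was 0.32, against 0.01 over all genes tested.

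Under IL-33 the mean of *Cd24a* was 7.67 times as high in *Sema6d*-/- ILC2s, at 5.48 ± 1.24 FPKM against 0.714 ± 0.692 FPKM in WT (SD, n = 3). The WT mean rests on values from 0 to 1.38 FPKM, so this ratio changes with each such library. The log2 difference was 1.99 (standard error 0.43), and limma's test of it is not read because the gene was selected on values that include these libraries. That of *Cd69* was 1.32 times as high in *Sema6d*-/- ILC2s, at 1987 ± 212 FPKM against 1506 ± 83.8 FPKM in WT (SD, n = 3). Its log2 difference was 0.40 (standard error 0.11, 95% interval 0.16 to 0.63, adjusted p = 1, limma; unadjusted 0.00365). *Cd7* averaged 2.29 ± 0.664 and 0.231 ± 0.207 FPKM (SD, n = 3), and *Cd2* 20.7 ± 6.79 and 8.74 ± 2.56 FPKM (SD, n = 3). Their log2 differences were 1.41 (standard error 1.16) and 1.14 (standard error 1.23), each with an adjusted p of 1 (limma). For *Cd69*, *Cd7* and *Cd2* the two-sided exact permutation test gave p = 0.10, the smallest it can give. *Ly6e* differed by 0.0046 (95% interval −0.29 to 0.30), so that the interval holds both small increases and small decreases. The other 5 members overlapped between the genotypes, with log2 differences of 1.19 for *Cd9*, 0.32 for *Ly6a*, 0.27 for *Cd83*, −0.12 for *Cd81* and −0.25 for *Kit*. With each library left out in turn, these ran from 0.68 to 1.81 for *Cd9*, 0.053 to 0.60 for *Ly6a*, 0.075 to 0.45 for *Cd83*, −0.22 to −0.0075 for *Cd81* and −0.51 to 0.0014 for *Kit*. Sums of the macrophage markers under IL-33, mostly *Chil3* and *Lyz2*, were highest in *Sema6d*-/- replicates 2 and 3. The sums of the dendritic cell markers, mostly *H2-Ab1* (a mean of 434 FPKM against 181 FPKM in WT), were higher in every *Sema6d*-/- than in any WT IL-33 library. *Zbtb46* also had a higher mean (10.5 against 6.17 FPKM in WT), and *Xcr1* a lower one (5.88 against 7.18 FPKM). *Flt3*, *Itgax* and *Siglech* were at most 0.213 FPKM in these libraries. The part of macrophages or dendritic cells in the differences between genotypes was not tested. Without *Sema6d*-/- IL-33 replicate 2 the difference of *Cd24a* was 2.08 and without replicate 3 it was 1.84, and that of *Cd69* was 0.37 and 0.33.

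Under PBS, the order of the genotypes was the opposite for *Cd24a* and *Cd69*, and *Cd83* was higher in *Sema6d*-/- ILC2s. The PBS values of *Cd24a* are part of the fall it was selected on, and of the 9 other members 2 did not overlap, *Cd69* and *Cd83*, against 8.59% of all genes. Of these 9 members, 0 were called by limma, against 0.577% of all genes (66 genes), and 3 (*Cd69*, *Cd83* and *Kit*) had an unadjusted p under 0.05, against 12.97% of all genes. *Cd69* averaged 2204 ± 126 FPKM with the deletion against 2991 ± 318 FPKM in WT (SD, n = 3), a log2 difference of −0.44 (standard error 0.11, 95% interval −0.68 to −0.20, adjusted p = 0.138, limma). It passed the threshold only without WT PBS replicate 3 (−0.51, adjusted p = 0.0499, limma), over a range of adjusted p from 0.0499 to 0.923. *Cd83* averaged 65.2 ± 17.6 and 35.1 ± 9.08 FPKM (SD, n = 3), a log2 difference of 0.87 (standard error 0.26, 95% interval 0.30 to 1.44, adjusted p = 0.228, limma). *Cd24a* averaged 42.8 ± 16.5 and 81.2 ± 15.6 FPKM (SD, n = 3), a log2 difference of −0.95 (standard error 0.43), again with its test not read. *Kit* averaged 126 ± 27.9 and 76.0 ± 29.7 FPKM (SD, n = 3) with overlap, a log2 difference of 0.78 (standard error 0.34, adjusted p = 0.358, limma), which ran from 0.43 without WT PBS replicate 2 to 1.03 without replicate 1. *Cd7* averaged 12.2 FPKM with the deletion and 12.3 FPKM in WT, although it differed by −1.72 on the log2 scale (standard error 1.16, adjusted p = 0.557, limma). Without *Sema6d*-/- PBS replicate 2 it differed by −3.47, against −0.85 without replicate 1, and was called (adjusted p = 0.0226, limma, over a range from 0.0226 to 0.954 in 21 alternatives), with both remaining *Sema6d*-/- libraries listed at 0. The remaining members overlapped as well, with log2 differences of 1.33 for *Cd2*, −0.04 for *Ly6e*, −0.20 for *Ly6a*, −0.49 for *Cd81* and −1.27 for *Cd9*. With each library left out in turn, these ran from −0.15 to 2.69 for *Cd2*, −0.15 to 0.11 for *Ly6e*, −0.49 to 0.028 for *Ly6a*, −0.77 to −0.25 for *Cd81* and −2.64 to 0.39 for *Cd9*, and that of *Cd24a* from −1.24 to −0.70. That of *Cd83* ran from 0.68 to 1.08. Without *Cd24a* the median difference was −0.20, against 0.00 over all genes tested.

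The interaction asks whether the response to IL-33 differed between the genotypes. Apart from *Cd24a*, 0 of 9 members were called by limma, against 0.0175% of all genes (2 genes), and 1, *Cd69*, had an unadjusted p under 0.05, against 5.59% of all genes. The size of the interaction beyond those given above was 3.13 (standard error 1.64, adjusted p = 0.895, limma) for *Cd7*, where it ran from 2.26 without *Sema6d*-/- PBS replicate 1 or 3 to 4.88 without replicate 2 (adjusted p = 0.0691 in the last, limma, over a range from 0.0691 to 0.992). It was 0.52 for *Ly6a*, 0.37 for *Cd81*, 0.04 for *Ly6e* and −0.18 for *Cd2*. With each library left out in turn, these ran from 0.25 to 0.81 for *Ly6a*, 0.13 to 0.65 for *Cd81*, −0.11 to 0.15 for *Ly6e* and −1.54 to 1.30 for *Cd2*. For *Cd69* the *Sema6d*-/- libraries lay between the WT groups. Those of *Cd24a* did as well, at 28.6 to 60.9 FPKM under PBS and 4.63 to 6.90 FPKM under IL-33. The latter is a description of values the gene was selected on, and nothing is read from it about the interaction.

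**Figure D2:**
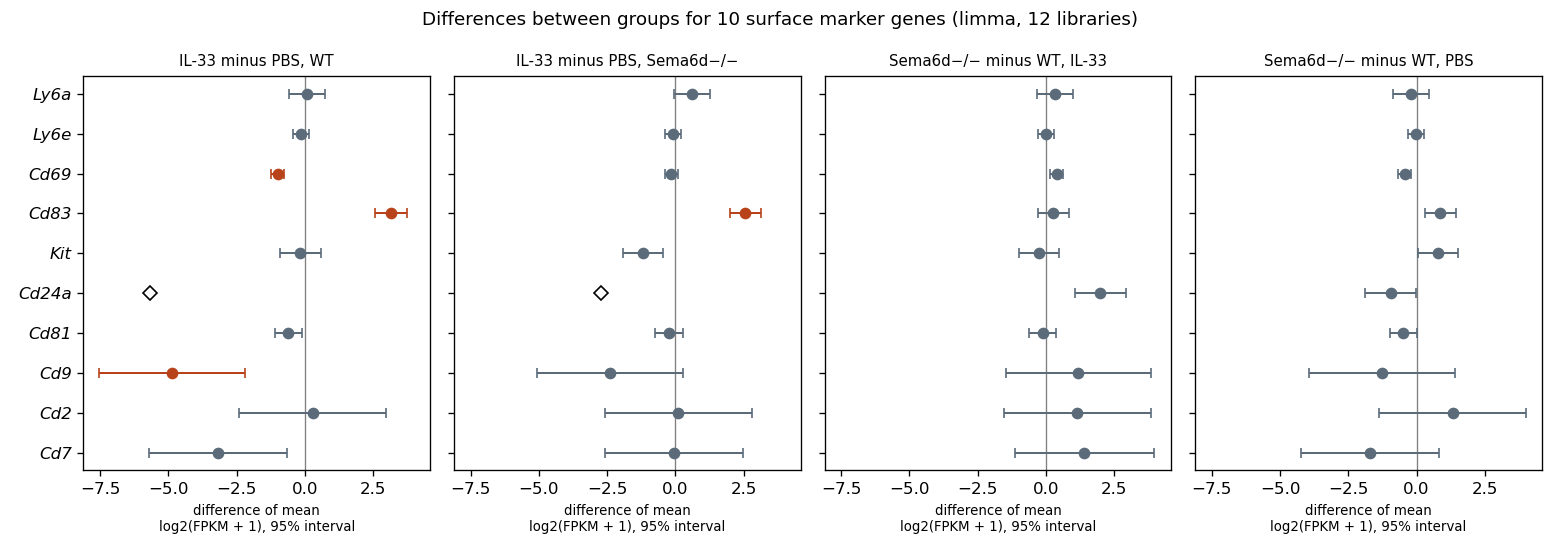
Log2 differences of the 10 surface marker genes on the log2(FPKM + 1) scale (horizontal axis, 1 gene per row) in 4 panels, IL-33 against PBS in each genotype and *Sema6d*-/- against WT under each treatment, 3 libraries per group. Bars are 95% intervals from limma, filled orange points have an adjusted p under 0.05, and open diamonds mark *Cd24a* between treatments, where it has no test; between genotypes it is drawn like the other members, but its test is not read; *Cd83* lies at 3.16 in WT and 2.57 in *Sema6d*-/- ILC2s, and *Cd69* at −0.99 and −0.15.

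Genes related to the markers were taken from 6 lists with 80 genes tested in all. Between IL-33 and PBS, 3 of the 80 were called higher in WT and 6 in *Sema6d*-/- ILC2s, against 2.71% and 1.79% of all genes tested. By limma 0 were called lower, against 1.61% and 1.11% of all genes, while 15 and 17 had an unadjusted p under 0.05, against 17.7% and 15.3% of all genes. Between the genotypes 0 of the 80 were called by limma under either treatment, against 0.00874% of all genes for IL-33 and 0.577% for PBS, with 6 at an unadjusted p under 0.05 for IL-33 and 10 for PBS, against 1.87% and 12.97% of all genes. For the interaction 0 were called by limma, against 0.0175% of all genes, and 5 had an unadjusted p under 0.05, against 5.59% of all genes. Nothing is read from these counts about the lists. Among the partners of CD2, the CD2 and SLAM family of adhesion receptors, 1 of 10 genes tested was called, *Cd48*, the ligand of CD2, and it rose in both genotypes. *Cd48* was at 116, 97.0 and 39.7 FPKM in WT PBS, 93.2, 74.1 and 65.5 FPKM in *Sema6d*-/- PBS, 254, 294 and 258 FPKM in WT IL-33 and 274, 279.6 and 302 FPKM in *Sema6d*-/- IL-33 libraries. Every IL-33 library was above every PBS library. In WT the log2 difference was 1.79 (standard error 0.32, adjusted p = 0.00937, limma), and with the deletion it was 1.88 (standard error 0.32, adjusted p = 0.00976, limma). The WT call was lost when only the groups compared were fitted (adjusted p = 0.0794, limma, over a range from 0.00242 to 0.0794 in 21 alternatives). *Pstpip1*, an adaptor that binds the tail of CD2, averaged 87.8 FPKM over the 12 libraries and was not called. The median difference of the list was 0.17 in WT and −0.17 in *Sema6d*-/- ILC2s.

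Among 14 residency genes tested, *Itgae*, which encodes the CD103 integrin chain that binds E-cadherin, rose in both genotypes. It was the 1 gene called in WT, against 2.71% of all genes called higher. It was at 0, 3.45 and 3.53 FPKM in WT PBS, 0, 0 and 4.66 FPKM in *Sema6d*-/- PBS, 164, 109 and 131 FPKM in WT IL-33 and 104, 149 and 139 FPKM in *Sema6d*-/- IL-33 libraries. The treatments were far apart in every library. The log2 difference was 5.62 in WT (standard error 0.71, adjusted p = 0.00127, limma) and 6.19 in *Sema6d*-/- ILC2s (standard error 0.71, adjusted p = 0.00106, limma), and both calls held in all 21 alternatives. In *Sema6d*-/- ILC2s, 4 of the 14 genes were called higher, against 1.79% of all genes. These were *Itgae*, *Ccr7*, a chemokine receptor for migration to lymph nodes (4.76, adjusted p = 0.0215, limma), *Rgs1*, a brake on chemokine signals (0.97, adjusted p = 0.0125, limma), and the adhesion receptor *Cd44* (0.74, adjusted p = 0.0439, limma). *Cd44* is the smallest of the 4 and was named after its value was seen. In WT, *Ccr7*, *Rgs1* and *Cd44* differed by 1.39, 0.58 and 0.51 and were not called (adjusted p = 0.511, 0.0900 and 0.139, limma). Their interactions were not called either (adjusted p = 0.879, 0.895 and 0.899, limma), so the responses were not shown to differ. The *Sema6d*-/- calls of *Ccr7*, *Rgs1* and *Cd44* were lost in some alternatives, and over 21 alternatives their adjusted p reached 0.127 for *Ccr7*, 0.108 for *Rgs1* and 0.193 for *Cd44*. That of *Ccr7* was lost without *Sema6d*-/- PBS replicate 1 or 2 or any *Sema6d*-/- IL-33 library (adjusted p from 0.0611 to 0.108, limma), and that of *Rgs1* without *Sema6d*-/- IL-33 replicate 2 (0.0577) or 3 (0.0600). That of *Cd44* was lost without *Sema6d*-/- PBS replicate 1 or 2 or any IL-33 library (adjusted p from 0.0700 to 0.161, limma), and also with the replicate number as a block (0.0854), array weights (0.101), only the groups compared (0.110) and no trend (0.193). The call of *Rgs1* was also lost without the trend (0.108) and with only the groups compared (0.0949), and that of *Ccr7* with only the groups compared (0.127). *Rgs1*, at 2526 FPKM, and *Cxcr6*, the receptor for CXCL16, at 1979 FPKM, had the highest means over the 12 libraries. The median difference of the list was 0.06 in WT and 0.24 in *Sema6d*-/- ILC2s, against 0.16 and 0.14 over all genes.

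In the Ly6 family, 12 genes were in the files and 5 of them were listed at 0 in all libraries. Of the 7 tested, 1 was called in each genotype, against 2.71% of all genes called higher in WT and 1.79% in *Sema6d*-/- ILC2s. This gene was *Ly6g5b*. It was at 20.5, 17.9 and 11.1 FPKM in WT PBS, 0, 8.74 and 8.54 FPKM in *Sema6d*-/- PBS, 134, 114 and 117 FPKM in WT IL-33 and 65.9, 59.9 and 87.2 FPKM in *Sema6d*-/- IL-33 libraries. All IL-33 libraries were above all PBS libraries, and *Ly6g5b* rose by 2.85 on the log2 scale in WT (limma, adjusted p = 0.0433) and by 3.97 with the deletion (limma, adjusted p = 0.0111). The WT call was lost when any WT library or any *Sema6d*-/- IL-33 library was left out (adjusted p from 0.0699 to 0.144, limma). It was also lost with the replicate number as a block (0.0646), without the trend (0.0700) and without the filter (0.0735). The other call was lost without *Sema6d*-/- IL-33 replicate 1 (0.0501) or 3 (0.0595). With a pseudocount of 0.1, the adjusted p was 0.275 and 0.0656 (limma), and over 21 alternatives it reached 0.275 and 0.103. *Ly6c1*, the second most abundant of the list, averaged 4.52 FPKM, and the median differences were 0 and 0.61.

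In the remaining 3 lists, 0 genes were called by limma between treatments in either genotype, against 2.71% of all genes called higher and 1.61% lower in WT and 1.79% and 1.11% in *Sema6d*-/- ILC2s. Over 21 alternatives, the number called reached 1 in WT and 2 in *Sema6d*-/- ILC2s for the tetraspanins and their partners. It reached 1 and 0 for the Kit signalling genes, and 1 in each genotype for the ligands and partners of CD24, CD7 and CD83. Of the tetraspanins and their partners, 23 were tested and 2 were listed at 0 in all libraries. In WT 2 and in *Sema6d*-/- ILC2s 4 of them had an unadjusted p under 0.05, and the median differences were −0.13 and −0.08. *Cd82* (867 FPKM) and *Tspan13* (626 FPKM) had the highest means over the 12 libraries, both above the group means of *Cd81* and *Cd9*. Of the Kit signalling genes, 20 were tested and 1 was listed at 0 in all libraries, and 5 in WT and 2 in *Sema6d*-/- ILC2s had an unadjusted p under 0.05. Their median difference was −0.04 in each genotype, and the adaptors *Dok2* (251 FPKM) and *Grb2* (69.9 FPKM) had the highest means. Of the ligands and partners of CD24, CD7 and CD83, 6 were tested, while *Sectm1a* and *Sectm1b*, which encode ligands of CD7, were listed at 0 in all libraries. Of these 6, 2 in WT and 1 in *Sema6d*-/- ILC2s had an unadjusted p under 0.05, and the median differences were 0.14 and 0.17. *H2-Ab1*, an MHC class II gene that is also in the dendritic cell list, was at 1.01, 38.0 and 61.8 FPKM in WT PBS, 86.8, 28.6 and 83.1 FPKM in *Sema6d*-/- PBS, 164, 152 and 229 FPKM in WT IL-33 and 486, 390.3 and 425 FPKM in *Sema6d*-/- IL-33 libraries. Its IL-33 values were above its PBS values, with log2 differences of 3.40 (adjusted p = 0.0793, limma) and 2.85 (adjusted p = 0.174, limma). *March8*, a ubiquitin ligase for MHC class II, averaged 1.57 FPKM.

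For the 3 members with the widest span of group means, the genes with the most similar pattern were found by the root mean square difference of centred log2(FPKM + 1) values over the 12 libraries, among 7411 genes. Nearest to *Cd24a* were *Bmp2*, a secreted growth factor (0.81), *1810011H11Rik* (0.91) and *Tuba8*, an alpha-tubulin (0.95). *Bmp2* averaged 62.3 and 48.9 FPKM under PBS and 3.66 and 7.51 FPKM under IL-33 in WT and *Sema6d*-/- ILC2s, the same order of groups as *Cd24a*. Nearest to *Cd9* were *Fam213b* (1.17), *Bmp2* (1.33) and *Cd24a* (1.38), each at a larger distance than those of *Cd24a*. Nearest to *Cd83* were *Spink2*, a protease inhibitor (0.50), *Car5b*, a mitochondrial carbonic anhydrase (0.50), and *Chad*, a matrix protein (0.53). *Spink2* was listed at 0 in all PBS libraries and averaged 8.62 and 11.4 FPKM in WT and *Sema6d*-/- IL-33 libraries. These likenesses are a description with no test.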

How the data were processed

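RNA of sorted lung ILC2s was sequenced in 12 libraries, and the authors deposited FPKM values, scaled for library size and gene length, for each gene symbol and library. The processing notes in the labels name TopHat2 2.1.1, Bowtie2 and Cuffdiff 2.2.1 with the mm10 build, whereas the methods of the study name Cuffnorm; the annotation is not stated. Kits also differ between the sources (SMART-Seq HT with Nextera in the labels, TruSeq Stranded in the methods), so it is not known whether reads were assigned by strand. Groups came from the labels.

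limma 3.58.1 (lmFit, and eBayes with a trend) in R 4.3.3 was fitted to log2(FPKM + 1) with 4 group means and 8 residual degrees of freedom, over 11440 genes that averaged at least 0.5 FPKM or are named here. Two-sided p-values were adjusted over these genes (Benjamini-Hochberg). For single genes, group means on this scale were compared by a two-sided exact permutation test. Python 3.11.15, numpy 2.4.6, pandas 2.3.3, scipy 1.17.1 and matplotlib 3.10.9 were used. Relative depth was estimated from the steps between values of genes of at most 3 FPKM and varied 1.88-fold; total reads are not known. The tests and the depth estimate were tested on simulated data. No pair of libraries was identical (0 pairs).

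The genes named are the 10 members and the 3 nearest genes of the 3 members with the widest span. From each list of related genes (Ly6 family, tetraspanins and partners, Kit signalling, CD2 and SLAM family, ligands and partners of CD24, CD7 and CD83, and residency genes) they are the 2 with the highest mean and up to 3 called in each direction. Markers of ILC2s, T cells, B cells, NK cells, macrophages, dendritic cells, neutrophils, eosinophils, mast cells and basophils, endothelium, epithelium, mesenchyme, erythroid cells and platelets were summed. The members and lists were chosen with earlier results of these data known. Positions are from GENCODE vM21.

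Each fit was repeated with each library left out, with a block for the replicate number, with array weights, with only the groups compared, without the trend, with quantile normalization, with median ratio scaling, without the filter, with a stricter minimum of 2 FPKM and with a pseudocount of 0.1. No library was left out of the values reported.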

Additional observations from a re-analysis of the deposited data

How the results depend on the processing

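For the 10 surface marker genes, 50 log2 differences were recomputed in 1040 alternatives, of which 983 kept direction and side of the threshold, 37 turned in direction, 12 lost a call, 7 gained one and 1 without a test, *Cd24a* for IL-33 in WT, moved to −7.32 with a pseudocount of 0.1. These totals include the differences of *Cd24a*, whose tests are not read. The calls of *Cd83* in both genotypes (log2 difference 2.98 to 3.36 in WT and 2.35 to 2.75 in *Sema6d*-/-) and of *Cd69* in WT (−1.06 to −0.91) were kept in all 21. Values of 0 occur for *Cd7* and *Cd2* in PBS and for *Cd7*, *Cd9* and *Cd24a* in WT IL-33 libraries; read totals are not known, so the level that a 0 allows cannot be given, and why values were 0 was not tested. Same-numbered libraries are not paired (r of their deviations −0.047 to 0.045 in 18 pairs). With the replicate number as a block, 3 members were called for IL-33 in WT, 1 for IL-33 in *Sema6d*-/-, and 0 between genotypes under either treatment and for the interaction, the same counts as without it. Of all 11440 genes, 369 were called with this block for IL-33 in WT and 222 for IL-33 in *Sema6d*-/-. Between genotypes 1 was called under IL-33 and 15 under PBS, and 1 for the interaction. Where values turned or calls moved, the cause was not tested.

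With array weights, 1 of the 10 members passed the threshold between the genotypes under IL-33, *Cd24a*, which was selected on values of these libraries, so that nothing is read from this call. With each library left out in turn, the number of members called was 2 to 4 for IL-33 in WT, 1 to 2 for IL-33 in *Sema6d*-/-, 0 between the genotypes under IL-33, and 0 to 1 both for the genotypes under PBS and for the interaction. Over all genes, 57 were called between the genotypes under IL-33 with array weights, 0 with quantile normalization, 0 with only the groups compared and 2 with a pseudocount of 0.1, against 1 (0 to 3 without a library). Under PBS, 1 was called with array weights, 1 with only the groups compared, 33 without a filter, 36 with quantile normalization and 15 with the replicate block, against 66 (20 to 207 without a library). For the interaction, 5 were called with a pseudocount of 0.1, 7 without the trend, 3 without a filter and 1 with the replicate block, against 2 (0 to 28 without a library). For IL-33 in *Sema6d*-/-, array weights gave 220.0 genes against 332 (139 to 494 without a library), and in WT the range without a library was 209 to 691 against 494. With quantile normalization, 250.0 genes were higher and 233 lower in WT, against 310.0 and 184, and 137 and 137 in *Sema6d*-/-, against 205 and 127.

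Directions that turned under other settings were those of small or scattered differences. With array weights, the log2 difference of *Cd2* for IL-33 in WT was −0.045, that of *Ly6e* −0.025 between the genotypes under IL-33, 0.028 under PBS and −0.053 for the interaction, and that of *Cd2* for the interaction 0.62. With quantile normalization, that of *Ly6e* was 0.022 for IL-33 in *Sema6d*-/- and 0.096 between the genotypes under PBS, and that of *Cd2* for the interaction 0.015. With a pseudocount of 0.1, that of *Cd7* for IL-33 in *Sema6d*-/- was 1.69.

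With each library left out in turn, the log2 differences that turned ranged, for IL-33 in WT, from −0.025 to 0.32 (*Ly6a*), −0.51 to 0.095 (*Kit*) and −1.19 to 1.06 (*Cd2*). For IL-33 in *Sema6d*-/- they ranged from −0.23 to 0.028 (*Ly6e*), −0.92 to 1.70 (*Cd7*), −0.47 to 0.053 (*Cd81*) and −1.25 to 0.85 (*Cd2*). Between the genotypes under IL-33 they ranged from −0.065 to 0.071 (*Ly6e*) and −0.51 to 0.0014 (*Kit*). Under PBS they ranged from −0.49 to 0.028 (*Ly6a*), −0.15 to 0.11 (*Ly6e*), −2.64 to 0.39 (*Cd9*) and −0.15 to 2.69 (*Cd2*). For the interaction they ranged from −0.11 to 0.15 (*Ly6e*) and −1.54 to 1.30 (*Cd2*).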
